A study of Mus musculus with 3 samples.

Results

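The genes described here are *Ctss*, *Ctsb*, *Ctsd*, *Ctsl*, *Ctsz*, *Ctsh*, *Ctsc* and *Lgmn*, which encode 7 lysosomal cathepsins and the lysosomal protease legumain. They were taken by gene symbol, and all 8 were found among the 27998 genes counted. They were read in the 7057 barcodes, of 2211840, that held at least 500 UMIs (distinct RNA molecules), 174 to 4548 genes and a mitochondrial share under 8.3%. The 8 genes were selected on measured values of these same libraries, already seen, so their levels across cell types are a description and carry no test. Which values were used is not stated, and they may include the comparison of stressed with unstressed mice.

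Lysosomes are the acidic compartments in which cells break down material taken up from outside or delivered from within. Cathepsins S, B, L, Z, H and C are cysteine proteases, cathepsin D is an aspartic protease, and legumain cuts after asparagine and also trims several cathepsin precursors to their mature forms. In macrophages, microglia and dendritic cells these enzymes digest engulfed cells and proteins and prepare antigen for MHC class II, where cathepsin S removes the invariant chain. Cystatins bind and inhibit the cysteine cathepsins, and some of them also inhibit legumain.

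The study examined the meninges, the membranes around the brain, of male C57BL/6J mice whose age the labels give as 10 to 12 weeks. HC mice stayed in their home cage without stress, and CSD mice went through chronic social defeat by an aggressor mouse for 14 days and were classed as stress-susceptible. Live nucleated singlets (DAPI-, DRAQ5+) were sorted with no selection of a cell type, and each of 3 droplet libraries (2 of HC, numbered replicates 1 and 2, and 1 of CSD) came from a pool of 4 mice in its own lane of 1 chip. The comparison of CSD with HC therefore rests on 2 HC libraries and 1 CSD library, and lane and group cannot be told apart for the CSD library.

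The libraries held 8814690 to 10206236 UMIs and gave 2599, 1702 and 2756 barcodes that passed, with medians of 2212 to 2503 UMIs. Between libraries, 17 barcode sequences were shared by a pair and 0 by all 3. Scrublet marked 0.940% to 3.74% of barcodes as doublets, and these were kept except in an alternative. RNA free in the suspension was plentiful: in HC replicate 2, 24.1% of UMIs lay in barcodes of at most 100 UMIs, against 7.87% and 5.48% in HC replicate 1 and CSD replicate 1. The summed level of 15 neutrophil markers in microglia-like cells, which should lack them, was 36082, 32864 and 42343 CPM, which stands for UMIs of a gene per 1e+06 UMIs of that cell type and library. Here and below, sets of 3 values give HC replicate 1 first, then HC replicate 2, then CSD.

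Cell types were named from marker lists after clustering without the 8 genes. Microglia-like cells numbered 183, 93 and 92, with *P2ry12* and *Tmem119* each seen in 93.5% of them. Border macrophage-like cells numbered 319, 59 and 126, with *Pf4* seen in 69.4%, *Mrc1* in 50.6% and *Lyve1* in 14.9%. All 10 microglia markers and all 12 border macrophage markers were detected in the cells named for them.

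Upstream sequence is shown for *Ctsd* and *Lgmn*, whose levels in microglia-like cells stood furthest above the next type, and for *Ctss*, the member called in a comparison of CSD with HC, as the RefSeq sequence of the 250 bases before a transcription start on the GRCm38.p6 build. Capitals mark CACGTG, the E-box of the kind bound by TFEB, GAGGAA, the core of the PU.1 site, which reads TTCCTC where it lies on the other strand, and TTCNNNGAA, a site of the STAT kind. Each was searched on both strands.
Ctsd (chr7:142387828-142388077, minus strand): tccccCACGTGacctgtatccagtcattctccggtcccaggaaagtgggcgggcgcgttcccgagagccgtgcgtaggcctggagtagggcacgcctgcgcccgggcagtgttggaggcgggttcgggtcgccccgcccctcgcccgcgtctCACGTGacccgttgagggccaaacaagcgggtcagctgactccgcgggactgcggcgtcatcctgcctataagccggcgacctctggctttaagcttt
Ctss (chr3:95526536-95526785, plus strand): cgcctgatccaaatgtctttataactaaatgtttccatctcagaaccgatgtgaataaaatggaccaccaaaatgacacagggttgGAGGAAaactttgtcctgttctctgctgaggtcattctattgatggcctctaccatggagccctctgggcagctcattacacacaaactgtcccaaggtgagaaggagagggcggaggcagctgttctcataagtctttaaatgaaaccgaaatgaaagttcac
Lgmn (chr12:102439729-102439978, minus strand): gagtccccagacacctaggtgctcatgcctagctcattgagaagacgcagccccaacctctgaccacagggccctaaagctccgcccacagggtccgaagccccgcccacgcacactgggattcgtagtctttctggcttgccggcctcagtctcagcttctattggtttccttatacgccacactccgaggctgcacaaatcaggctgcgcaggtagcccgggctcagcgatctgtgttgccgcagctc
The E-box stood at -245 and -98 before the *Ctsd* start and in neither of the other 2 windows. It occurred in 6.02% of 32851 promoter windows of the same length. GAGGAA stood at -164 in the *Ctss* window and was found in 23.3% of all windows. A second RefSeq start of *Lgmn* (window chr12:102439093-102439342) had the E-box at -49, and the *Ctsl* window had it at -236. The *Ctsc* window held GAGGAA at -196 and -149 and TTCNNNGAA at -236, a motif of 7.02% of windows, and the *Ctsz* window held none of the 3. These matches describe letters in the windows and no binding was measured.

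The genes lie on separate chromosomes except *Ctsd* and *Ctsc*, which are both on chromosome 7. In the GENCODE annotation of the same build the *Ctsd* gene spans chr7:142375911-142388038 and *Ctsc* spans chr7:88278085-88310888. *Ctss* spans chr3:95526786-95556403, *Ctsb* spans chr14:63122462-63145923 and *Ctsl* spans chr13:64359337-64370890. *Ctsz* spans chr2:174427493-174439039, *Ctsh* spans chr9:90054152-90076089 and *Lgmn* spans chr12:102394084-102439813. Among counted genes, *Fdft1* overlaps *Ctsb*, *Nelfcd* overlaps *Ctsz* and *Gm26522* overlaps *Ctsc*, each on the opposite strand.

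*Ctss*, cathepsin S, was highest in microglia-like cells, with 6265, 6708 and 6688 CPM. Border macrophage-like cells followed with 2742, 4021 and 4121 CPM, and the ranges of the 2 types did not overlap. Monocyte-like cells had 1403, 1532 and 1191 CPM and cDC-like cells, conventional dendritic cells, had 1447, 1485 and 1010 CPM, and these types overlapped. Mature B-like cells stood at 663 ± 19.8 CPM (SD, n = 3), with a range that overlapped that of pDC-like cells (plasmacytoid dendritic cells) at 766 ± 225 CPM. T-like cells, which serve as background, had 313, 372 and 215 CPM. With the profile of barcodes of at most 100 UMIs subtracted, they kept a mean of 110 CPM, against 37.1 CPM in NK-like cells. The T-like level may therefore include some *Ctss* of their own. After every cell was thinned to 500 UMIs, a *Ctss* UMI was seen in 94.5%, 96.8% and 93.5% of microglia-like cells, against 15.1%, 17.9% and 10.3% of T-like cells, whose median depth was 2226, 2662 and 1957 UMIs before thinning, with 2078, 2307 and 1734 in microglia-like cells.

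**Figure D1:**
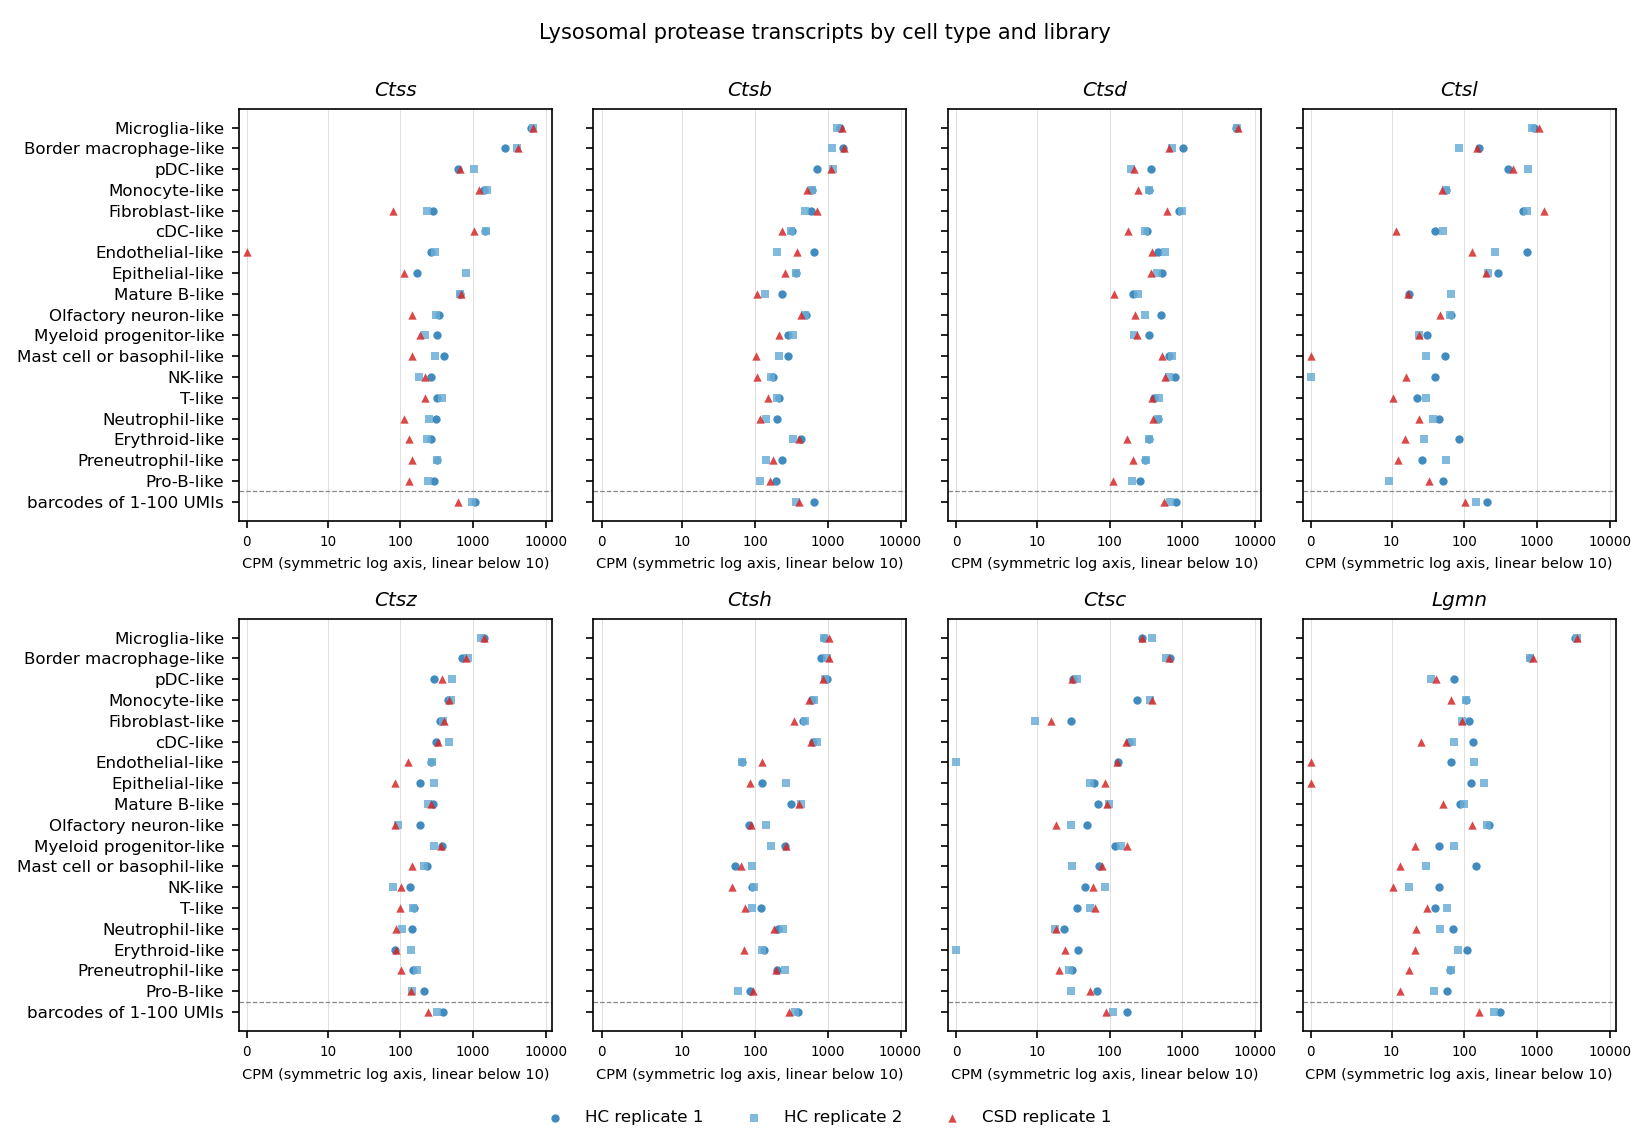
CPM of the 8 genes (panels) in each named cell type and, under the dashed line, in barcodes of 1 to 100 UMIs, with 1 point per library on an axis that is linear below 10 CPM and logarithmic above. Microglia-like cells are at or near the top for every gene but *Ctsc*, and *Ctsd* and *Lgmn* stand apart there, at 5409 to 5721 CPM and 3330 to 3544 CPM.

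*Ctsb*, cathepsin B, was about equally high in border macrophage-like cells (1627, 1147 and 1684 CPM) and microglia-like cells (1476, 1342 and 1583 CPM). pDC-like cells came next at 704, 1167 and 1110 CPM, a range below that of microglia-like cells and overlapping that of border macrophage-like cells. Fibroblast-like and monocyte-like cells overlapped at 594 ± 120 and 578 ± 48.9 CPM. *Ctsl*, cathepsin L, showed another order: microglia-like cells at 896, 856 and 1050 CPM overlapped fibroblast-like cells at 644, 720 and 1237 CPM and, in the next rank, pDC-like cells at 541 ± 194 CPM overlapped the fibroblast-like cells. Border macrophage-like cells had 160, 83.5 and 151 CPM of *Ctsl*, which was 14.0% of the microglia-like mean. Endothelial-like cells ranked next to pDC-like cells at 719, 268 and 126 CPM, from 11, 8 and 1 UMIs.

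Among the exopeptidases, *Ctsz*, cathepsin Z, which trims single residues from the carboxyl end, had 1399, 1270 and 1394 CPM in microglia-like cells, 699, 852 and 785 CPM in border macrophage-like cells and 452, 499 and 463 CPM in monocyte-like cells, and none of these 3 ranges overlapped the next. *Ctsh*, cathepsin H, an aminopeptidase, did not separate border macrophage-like (944 ± 122 CPM), microglia-like (932 ± 88.0 CPM) and pDC-like cells (910 ± 59.0 CPM). cDC-like and monocyte-like cells followed at 635 ± 68.2 and 603 ± 41.0 CPM. *Ctsc*, cathepsin C, the dipeptidyl peptidase that activates granule serine proteases of neutrophils, mast cells and cytotoxic lymphocytes, was highest in border macrophage-like cells at 675, 590 and 661 CPM. Monocyte-like cells (237, 353 and 376 CPM) and microglia-like cells (280, 385 and 278 CPM) overlapped each other below them. Neutrophil-like cells themselves held 23.7, 17.6 and 18.4 CPM of *Ctsc*, under the 35.3, 53.7 and 62.1 CPM of T-like cells.

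*Ctsd*, cathepsin D, had 5409, 5576 and 5721 CPM in microglia-like cells, and the next type, fibroblast-like cells, reached 14.8% of that mean. Fibroblast-like (891, 972 and 611 CPM), border macrophage-like (1024, 719 and 648 CPM) and NK-like cells (800, 652 and 581 CPM) overlapped in a chain. *Lgmn*, legumain, had 3330, 3511 and 3544 CPM in microglia-like cells and 812, 791 and 867 CPM in border macrophage-like cells, 23.8% of the microglia-like mean. Olfactory neuron-like cells came next at 218, 204 and 129 CPM, and every other type had a mean of 103 CPM or less. Thinned to 500 UMIs, 80.3%, 82.8% and 93.5% of microglia-like cells held a *Lgmn* UMI, against 0.541%, 4.72% and 1.15% of T-like cells. In NK-like cells *Lgmn* was seen in 1 of 67, 0 of 50 and 0 of 88 thinned cells, and the exact upper 95% limits of the last 2 shares were 7.11% and 4.11% (counting error only).

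Shares of each gene's UMIs followed both level and cell number. Microglia-like cells held 47.1%, 58.6% and 51.5% of all *Lgmn* UMIs in passing barcodes. Border macrophage-like cells held 47.2%, 16.8% and 18.9% of the *Ctsc* UMIs, the first being the library in which they were most numerous. Neutrophil-like cells, the most numerous type, contained 13.8%, 18.5% and 34.3% of the *Ctsd* UMIs, free RNA included. Over all passing barcodes of a library *Lgmn* stood at 314, 240 and 129 CPM and *Ctss* at 1064, 916 and 574 CPM. In such a whole-library value fewer cells of a type and less RNA per cell cannot be told apart.

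The *Ctsd* level of neutrophil-like cells, 463, 467 and 390 CPM, was close to that of T-like cells (401, 476 and 386 CPM) and below that of near-empty barcodes (827, 681 and 561 CPM). With the near-empty profile subtracted, at estimated shares of 75.0%, 49.9% and 90.3% of UMIs, it was 0, 226 and 0 CPM. In HC replicate 1 and CSD the near-empty *Ctsd* level taken at that share exceeds the level seen in neutrophil-like cells. Those 0 values therefore followed from the shares and do not show that these cells lack *Ctsd*. T-like cells kept a mean of 328 CPM after subtraction, at shares of 28.6%, 21.1% and 20.6%. The following cluster values were not subtracted, so they include free RNA, and its part in them was not tested. Cluster 2, with *Il1b* at 1391, 1407 and 1375 CPM and *Cxcr2* at 514, 508 and 575 CPM, held *Ctsd* at 683, 712 and 622 CPM. This was below the near-empty level in HC replicate 1 and above it in HC replicate 2 and CSD. Cluster 11, with *Camp*, a gene of secondary granules, at 55382, 56380 and 58741 CPM, held *Ctsd* at 364, 339 and 251 CPM. Cluster 3 lay between for *Camp* and held *Ctsd* at 384, 427 and 375 CPM. The cells of cluster 2 had a median of 1296 UMIs, against 2772 and 4179 in clusters 3 and 11. *Ctss*, *Ctsz* and *Lgmn* stayed within 1.5 times of each other across the 3 clusters in their means.

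Border macrophage-like cells fell into 4 sub-clusters, of which 1 was low in *H2-Aa*, an MHC class II chain (1288, 881 and 1675 CPM), and high in *Lyve1* (428, 881 and 287 CPM). The other sub-clusters together held *H2-Aa* at 11199, 11653 and 11561 CPM. Their mean level of *Ccr2*, a monocyte marker here, was 276 CPM, against 26.9 CPM in the *H2-Aa*-low cells and 367 CPM in monocyte-like cells. Their means of the macrophage markers *Mrc1* and *Pf4* were 182 and 770 CPM, against 628 and 2729 CPM in the *H2-Aa*-low cells. The *H2-Aa*-low cells made up 45.1%, 16.9% and 25.4% of border macrophage-like cells, so the mix differed between the 2 HC libraries more than between either and CSD. *Ctsb* was higher in the *H2-Aa*-low cells in every library, at 2204, 1946 and 2616 CPM against 1177, 1004 and 1444 CPM. *Ctsd* was 1536, 2644 and 1149 CPM there against 626, 374 and 518 CPM, and *Ctsl* was 241, 184 and 223 CPM against 96.4, 65.7 and 132 CPM. *Lgmn* (989, 918 and 1117 CPM against 675, 768 and 802 CPM) and *Ctsc* (842, 735 and 750 CPM against 546, 565 and 638 CPM) were also higher in the *H2-Aa*-low cells of every library. *Ctss* was lower in the *H2-Aa*-low cells within each library, with 2132, 3929 and 3207 CPM against 3217, 4038 and 4357 CPM, although the ranges overlapped. For *Ctsz* and *Ctsh* the order differed between libraries. The HC replicate 2 values of the *H2-Aa*-low cells came from 10 cells.

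**Figure D2:**
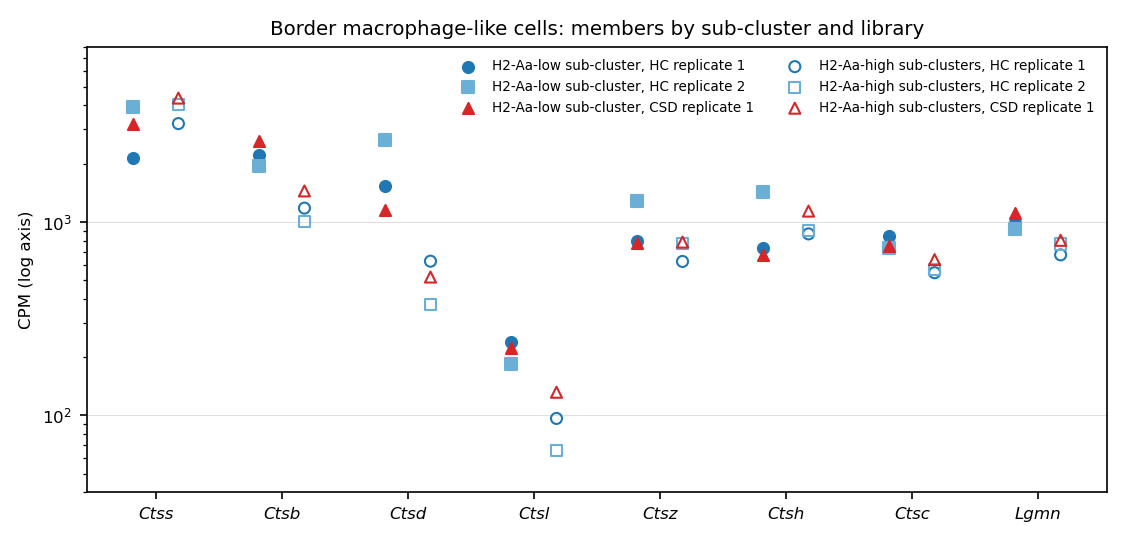
CPM (log axis) of the 8 genes in the *H2-Aa*-low sub-cluster (filled) and the *H2-Aa*-high sub-clusters (open) of border macrophage-like cells, with 1 point per library. *Ctsb*, *Ctsd* and *Ctsl* lie higher in the *H2-Aa*-low cells of all 3 libraries, and *Ctss* lies lower within each library although its ranges overlap.

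Monocyte-like cells also differed by cluster. Cluster 1 had *Ctss* at 1658, 1872 and 1532 CPM, and the smaller cluster of cycling cells, with *Mki67* at 290, 262 and 365 CPM, had *Ctss* at 728, 619 and 714 CPM. *Ctsl* and *Lgmn* were also lower in the cycling cluster in each library, at 27.4, 25.5 and 23.1 CPM against 67.5, 67.2 and 68.1 CPM for *Ctsl* and at 65.6, 31.9 and 41.1 CPM against 123, 130 and 91.4 CPM for *Lgmn*. *Ctsz* did not separate them, with 470, 415 and 465 CPM in the cycling cluster and 451, 535 and 435 CPM in cluster 1. Another small cluster, of 3, 3 and 15 cells, with *Mki67* at 210, 299 and 65.8 CPM, had *Ctss* at 1155, 1047 and 976 CPM, between the other two. Cluster 1 held 109 of 131, 84 of 103 and 120 of 172 monocyte-like cells.

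Over the mean CPM of 18 cell types, on a log2 scale with 10 CPM added, the genes most like *Lgmn* among the 6590 compared were *Fcrls* (Pearson r of 0.945) and *C1qc* (0.939), a chain of complement C1q. *Ctss* was most like *Ly86* (0.932) and *Il10ra* (0.920), and *Ctsz* was most like *Ly86* (0.896) and *Asah1* (0.895), the lysosomal acid ceramidase. *Ctsb* was closest to *Asah1* (0.884) and *Ctsa* (0.880), cathepsin A, a lysosomal carboxypeptidase. *Ctsd* was closest to *Tmem119* (0.885) and *Ppp1r9a* (0.878), and *Ctsl* to *Rilpl1* (0.949) and *Plxdc2* (0.903). *Ctsh* was closest to *Scpep1* (0.899) and *Asah1* (0.861), and *Ctsc* to *Susd3* (0.839) and *Fcgr2b* (0.832), an inhibitory Fc receptor. Among the members r ran from 0.0945 between *Ctsl* and *Ctsc* to 0.856 between *Ctss* and *Ctsz*. The 18 points share libraries and free RNA, and these values carry no p.

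The wider lysosomal genes were measured beside the members. Of 23 glycosidases, lipid hydrolases and activators, 14 reached 50 CPM in at least 1 of the 6 types compared below, and 9 of them were highest in microglia-like cells. Of 22 membrane, pump and sorting genes, 14 reached that level and 9 were highest in microglia-like cells. In the other lists, those highest there were 2 of 4 other cathepsins and 1 of 3 inhibitors at that level. For other peptidases it was 2 of 5, and for transcription factors 1 of 1. The share of all genes highest in microglia-like cells was not counted, so these counts are a description. *Cst3*, cystatin C, the secreted inhibitor of cysteine cathepsins, had 36595, 37459 and 33173 CPM in microglia-like cells against 7117, 7352 and 6826 CPM in border macrophage-like cells.

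The effect of stress was asked within 6 cell types, with UMIs summed per library and tested by edgeR's quasi-likelihood test (two-sided, Benjamini-Hochberg adjusted over every gene with a UMI in over 15% of cells, threshold 0.05). The spread came from the 2 HC libraries alone, and CSD was taken to have the same spread. Of the 8 genes, 1 passed in 1 of 6 cell types, which was *Ctss* in neutrophil-like cells.

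In microglia-like cells 0 of 8 members passed at an adjusted p under 0.05, and 0.0571% of the 1750 genes tested did. Unadjusted, 0 members were under 0.05, and DESeq2 called 0 members too. CSD stood at 6688 CPM of *Ctss*, between the HC values of 6265 and 6708 CPM, and the log2 fold change was 0.04 with a 95% interval of -0.32 to 0.40. *Ctsd* differed by 0.05 (-0.31 to 0.42) and *Lgmn* by 0.05 (-0.37 to 0.46) on the log2 scale. Intervals were widest for *Ctsc*, at -0.24 (-0.96 to 0.48). The members' median log2 fold change was 0.05, beside -0.02 over all genes tested. The one gene called, named after its value was seen, was *Mgp*, a fibroblast gene, at 370, 395 and 16.7 CPM.

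In border macrophage-like cells 0 of 8 members passed, and 0.463% of 1942 genes did, 0.206% as lower. *Ctss* was 2742 CPM in HC replicate 1, 4021 CPM in HC replicate 2 and 4121 CPM in CSD, so the HC libraries differed by more than CSD did from the nearer of them. Its log2 fold change was 0.30 (95% interval -0.21 to 0.82), and the lowest adjusted p of the members was 0.999 by edgeR, with 0 members under 0.05 unadjusted and 0 called by DESeq2. *Ctsd* was lower in CSD than in either HC library (1024, 719 and 648 CPM), at -0.43 on the log2 scale (-1.06 to 0.20). In the *H2-Aa*-high sub-clusters alone, chosen after seeing the data, the CSD value lay between the HC values (626, 374 and 518 CPM), at -0.01 (-0.96 to 0.94). The test of the difference between microglia-like and border macrophage-like cells called 0 of 8 members and 0.231% of 2161 genes, 0.185% as lower, with 0 members under 0.05 unadjusted and 0 called by DESeq2. For *Ctsd* that difference was 0.51 (-0.00 to 1.03) on the log2 scale, with all sub-clusters included.

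In cDC-like cells 0 of 8 members passed, and 0.0322% of 3107 genes did, but all 8 fold changes were below 0, with a median of -0.48 beside -0.02 over all genes. *Lgmn* had 132, 73.0 and 25.8 CPM, from 118, 23 and 9 UMIs, and a log2 fold change of -2.08 ± 0.50 (SE; adjusted p = 0.230 by edgeR, and 0.00817 when genes seen in few cells were kept). With those genes kept, 19 of 13467 genes were called, 10 of them as lower. *Ctsl* had 39.1, 50.8 and 11.5 CPM, from 35, 16 and 4 UMIs, at -1.88 ± 0.61 (adjusted p = 0.561 by edgeR). *Ctss* had 1447, 1485 and 1010 CPM, with the CSD library below both HC libraries, at -0.53 ± 0.22 (adjusted p = 0.683 by edgeR). Unadjusted, 4 members were under 0.05, and DESeq2 called 0. The summed level of 10 microglia markers in these cells was 421, 355 and 152 CPM, and its part in these values was not tested.

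In monocyte-like cells 0 of 8 members passed, and 1.67% of 3464 genes did, 1.07% as lower. *Lgmn* had 106, 104 and 66.5 CPM, at -0.67 ± 0.27 on the log2 scale (adjusted p = 0.246 by edgeR), and *Ctsd* had 342, 345 and 249 CPM, at -0.48 ± 0.21 (adjusted p = 0.343 by edgeR). *Ctsc* was the only member above 0, with 237, 353 and 376 CPM and 0.35 ± 0.20 (adjusted p = 0.584 by edgeR). Unadjusted, 2 members were under 0.05, and DESeq2 called 0. The 10 microglia markers summed to 485, 356 and 133 CPM here, and their part was not tested.

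In neutrophil-like cells *Ctss* fell with CSD, the only call among 5 members tested, in a comparison that called 3.27% of 1192 genes, and 1.51% as lower. The level was 308 and 243 CPM in HC and 112 CPM in CSD, from 585, 318 and 389 UMIs, and the groups did not overlap. The log2 fold change was -1.24 ± 0.19 (SE; adjusted p = 0.0025 by edgeR), or 0.423 of the HC level. The call was lost at 3 other settings that kept the direction: with cells of at least 1000 UMIs (-1.26, adjusted p = 0.315 by edgeR), at Leiden resolution 2 (-1.11, adjusted p = 0.107) and without correction between libraries (-1.18, adjusted p = 0.311). DESeq2 gave -1.24 with an adjusted p of 0.0492. *Ctsb*, *Ctsz*, *Ctsh* and *Ctsd* did not pass, with log2 fold changes of -0.50, -0.46, -0.24 and -0.18. *Ctsl*, *Ctsc* and *Lgmn* were not tested, being seen in too few of these cells. With such genes kept, *Lgmn* was also called lower, at -1.15 ± 0.26 (adjusted p = 0.00129 by edgeR). At that setting 280 of 14780 genes were called, 135 of them as lower. From the wider lysosomal lists *Cst3* was called lower in neutrophil-like cells, at 1577, 1366 and 858 CPM, with -0.71 ± 0.18 (adjusted p = 0.0488 by edgeR). In border macrophage-like, microglia-like, cDC-like and mature B-like cells 0 of 30, 29, 31 and 11 list genes passed by edgeR, with 0, 1, 2 and 3 under 0.05 unadjusted.

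**Figure D3:**
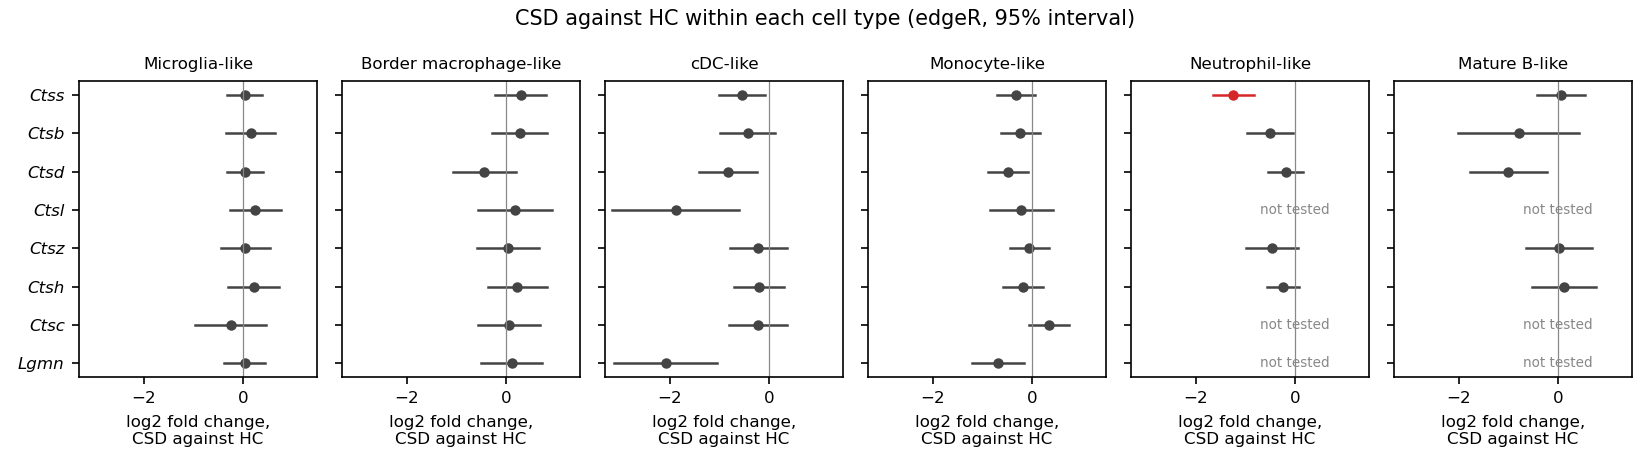
Log2 fold change of CSD against HC for the 8 genes within 6 cell types, with 95% intervals from edgeR, red where the adjusted p is under 0.05. *Ctss* in neutrophil-like cells, at -1.24, is the only red point, and the microglia-like points lie between -0.24 and 0.25.

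The *Ctss* level of neutrophil-like cells was below that of T-like cells in each library (313, 372 and 215 CPM). NK-like cells held 260, 183 and 217 CPM, below neutrophil-like cells in both HC libraries and above them in CSD. The thinned share of cells with a *Ctss* UMI was 13.3%, 13.1% and 5.41% in neutrophil-like cells. That was below the 15.1%, 17.9% and 10.3% of T-like cells, which serve as background. In barcodes of at most 100 UMIs *Ctss* stood at 1070, 962 and 611 CPM, a CSD level of 0.602 of the HC mean. The same ratio was 0.406 in neutrophil-like cells. In other types of low *Ctss* it was 0.449 in preneutrophil-like, 0.447 in olfactory neuron-like, 0.494 in pro-B-like, 0.520 in erythroid-like and 0.627 in T-like cells. In NK-like cells it was 0.978. In mature B-like cells, which hold more *Ctss*, the ratio was 1.05. *Cst3* in those near-empty barcodes was 5395, 4234 and 2632 CPM. The 10 microglia markers summed to 321, 255 and 82.4 CPM in neutrophil-like cells. When the near-empty profile was subtracted, at estimated shares of 75.0%, 49.9% and 90.3% of the UMIs of these cells, 0 *Ctss* UMIs were left in each library. In each library the near-empty *Ctss* level taken at that share exceeds the level seen in neutrophil-like cells. The 0 therefore followed from the shares, which are too high for this gene, and the subtraction cannot show whether *Ctss* changed. The shares were estimated from mature B markers, which were used for neutrophil-like and preneutrophil-like cells alone. These shares were larger than those of T-like cells (28.6%, 21.1% and 20.6%), which came from *S100a8* and *S100a9*. Without the doublets that Scrublet marked, the log2 fold change was -1.19 ± 0.18 (adjusted p = 0.0110 by edgeR).

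**Figure D4:**
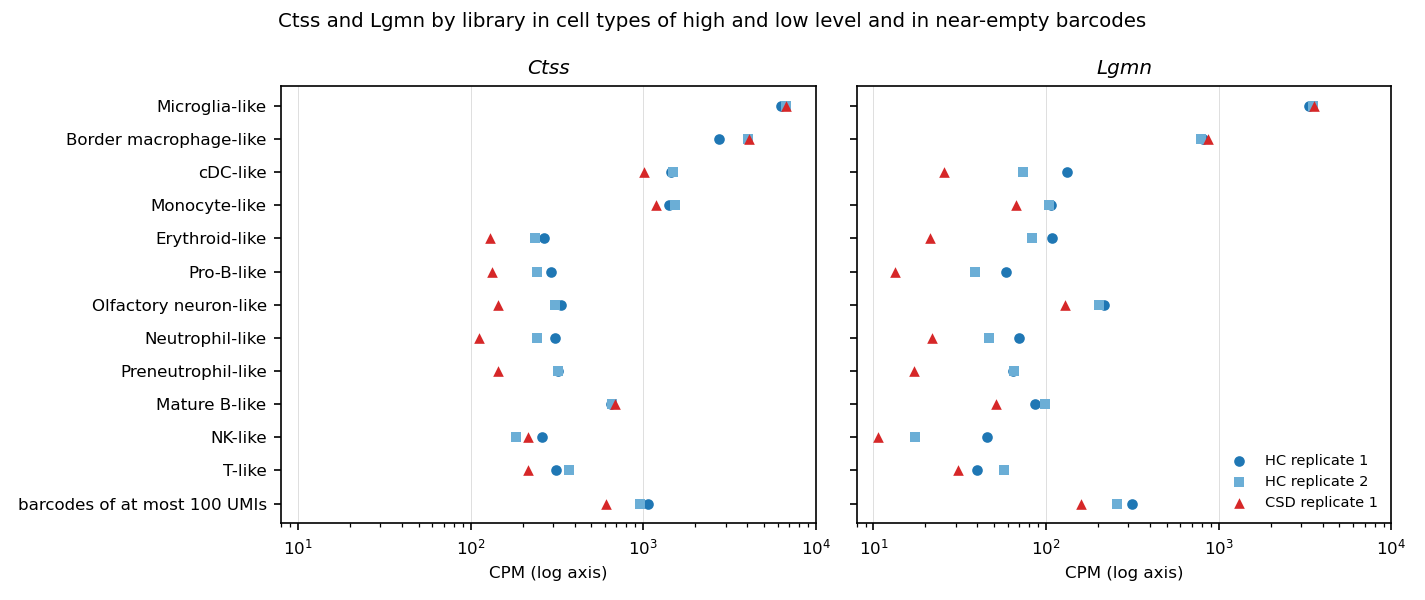
CPM (log axis) of *Ctss* and *Lgmn* in 12 cell types and in barcodes of at most 100 UMIs, with 1 point per library. In microglia-like cells the 3 libraries nearly coincide, while in neutrophil-like, preneutrophil-like, pro-B-like and erythroid-like cells and in the near-empty barcodes CSD lies below both HC libraries.

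*Lgmn* was also lower in CSD than in both HC libraries in cells of low level. It was 69.4, 46.7 and 21.8 CPM in neutrophil-like cells, 64.2, 64.9 and 17.2 CPM in preneutrophil-like cells, 109, 82.8 and 21.2 CPM in erythroid-like cells and 314, 257 and 159 CPM in near-empty barcodes. In mature B-like cells 0 of 5 members passed, and 0 of 1102 genes did (0% called), with 33 genes under 0.05 unadjusted and 0 called by DESeq2. *Ctss* there was 648, 656 and 686 CPM, a log2 fold change of 0.07 (95% interval -0.42 to 0.56), and *Ctsd* was 212, 242 and 113 CPM, or 0.500 of the HC level (adjusted p = 0.977 by edgeR). The 10 microglia markers summed to 324, 340 and 56.7 CPM in mature B-like cells, and *Ctsd* in near-empty barcodes was 827, 681 and 561 CPM; their part was not tested.

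The difference of the CSD effect between neutrophil-like and monocyte-like cells called 1 of 8 members and 2.73% of 3517 genes, 1.28% as lower. It was *Ctss*, whose log2 fold change was lower in neutrophil-like cells by 0.86 ± 0.13 (SE; a difference of -0.86, adjusted p = 1.6e-08 by edgeR). DESeq2 gave -0.82 ± 0.27 with an adjusted p of 0.913, so the call rested on the test used. The near-empty level of *Ctss* was above that of neutrophil-like cells and below that of monocyte-like cells in each library, and its part in the difference was not tested.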

How the data were processed

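Meninges of 3 pools of 4 mice were profiled with droplet 3′ libraries. The deposited counts are raw UMI counts per gene and barcode, made by the authors with Cell Ranger 2 on mm10 (submitters' processing notes); in the sources used here the annotation is not given. The number after each barcode was taken as the group number that the labels give each library. The analysis used barcodes of 500 UMIs or more that held 174 to 4548 genes and under 8.3% mitochondrial UMIs, and none was removed as a doublet; Scrublet's automatic threshold could not be used for CSD, where scores above the 95th percentile were marked.

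Cells were normalised with scran 1.30.0, corrected between libraries by mutual nearest neighbours and clustered with Scanpy 1.11.5, leaving out the 8 genes and the lysosomal lists, and clusters were named from marker lists. The share of free RNA was estimated from *S100a8* and *S100a9*, or from mature B markers in neutrophil-like and preneutrophil-like cells. Sums of UMIs over the cells of a type in each library were tested with edgeR 4.0.16 (quasi-likelihood, TMM, two-sided, Benjamini-Hochberg), in 6 chosen types, each with at least 20 cells per library; other types that reached this number, T-like and NK-like cells among them, were not tested. The 2 differences between cell types were fitted with a term for each library. The pools are the replicates, so the p-values rest on 2 HC libraries and 1 CSD library. Tested on simulated data for the same comparisons, the fit recovered 95.7% of genes changed by 1 on the log2 scale in neutrophil-like cells (1192 genes), 47.3% in monocyte-like (3464 genes), 39.4% in microglia-like (1750 genes), 33.7% in border macrophage-like (1942 genes), 28% in cDC-like (3107 genes) and 6.06% in mature B-like cells (1102 genes). In neutrophil-like cells 11 of 992 unchanged genes were called too. Within a cell type all genes were simulated with the same dispersion (0.0171 in neutrophil-like cells), so recovery with spread that differs between genes was not measured.

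Named genes were the 8 members in every comparison, the 2 genes most like each, up to 5 called genes of the lysosomal lists per comparison, and markers. Results of 1 gene of these lists are not reported here. Members and lists were chosen with earlier results of these data known. Alternatives were DESeq2 1.42.0, no TMM, no filter on the share of cells, doublets left out, stricter UMI and mitochondrial limits, free RNA subtracted, another clustering resolution, no correction between libraries and each library left out. Promoter windows came from RefSeq for 6 of the 8 genes (GRCm38.p6), and not for *Ctsb* and *Ctsh*. Intervals on counts and shares of cells cover counting error only.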

Additional observations from a re-analysis of the deposited data

Results flagged for a closer look

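The fitted log2 fold change of *Ctss* between CSD and HC differed between neutrophil-like and monocyte-like cells by the test of the difference itself, on UMIs that include free RNA. The log2 fold change was lower in neutrophil-like cells, with a difference of -0.861 (adjusted p = 1.6e-08 by edgeR), from 308, 243 and 112 CPM in neutrophil-like cells and 1403, 1532 and 1191 CPM in monocyte-like cells. The difference had an adjusted p of 5.0e-05 without TMM, 0.0386 with doublets left out and 0.913 by DESeq2. The neutrophil-like level was below that of T-like cells in each library (313, 372 and 215 CPM). With free RNA subtracted no *Ctss* UMIs were left in neutrophil-like cells, at estimated shares too high for this gene. The part of free RNA in the difference was not tested, so a change in expression cannot be told apart from it.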

How the results depend on the processing

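No paired analysis was possible, because the libraries are pools of different mice and the replicate numbers do not match HC pools to CSD pools. The number of genes called in neutrophil-like cells, 39, became 12 with DESeq2, 280 with no filter on the share of cells, 19 with doublets left out, 1 with at least 1000 UMIs, 16 at a mitochondrial limit of 5%, 7 with free RNA subtracted, 6 at Leiden resolution 2 and 1 with no correction between libraries. Members called there became 2 with no filter and 0 with at least 1000 UMIs, free RNA subtracted, resolution 2 or no correction. In monocyte-like cells 58 became 4 with DESeq2, 21 without TMM, 3 with doublets left out, 31 with free RNA subtracted, 33 at resolution 2 and 0 with no correction. In border macrophage-like cells 9 became 1 with DESeq2, 0 without TMM, 3 with doublets left out, 0 with free RNA subtracted and 5 with no correction. In microglia-like cells 1 became 9 with no filter, 6 with at least 1000 UMIs, and 0 at the mitochondrial limit of 5% or with free RNA subtracted. In cDC-like cells 1 became 19 with no filter, where 1 member was called, and 0 with doublets left out, at least 1000 UMIs, free RNA subtracted or resolution 2. In mature B-like cells 0 became 4 with no filter and 7 with free RNA subtracted. The difference between microglia-like and border macrophage-like cells went from 5 to 0 with DESeq2, and that between neutrophil-like and monocyte-like cells from 96 to 2 with DESeq2, with 0 members, and to 23 with doublets left out. The cause of these changes was not tested. Alternatives chosen after seeing the data gave 31 genes in monocyte-like cluster 1 alone and 0 in the *H2-Aa*-high sub-clusters alone.

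Without TMM the median log2 fold change of all genes was -0.11 in neutrophil-like cells, where 9 genes were called higher and 19 lower against 21 and 18, and -0.19 for the difference from monocyte-like cells, with 20 higher and 119 lower against 51 and 45.

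Of 523 recomputed log2 fold changes of members, 485 kept direction and, where there was an adjusted p, the call. Another 21 turned direction, none of them a called value. Without HC replicate 1 or 2 no test was run, and 32 values in each were counted as kept for lying within 1 SE. With no filter, *Ctsd* in neutrophil-like cells was 0.0391 and *Ctsz* in monocyte-like cells 0.0327. With free RNA subtracted, monocyte-like *Ctsl*, *Ctsz* and *Lgmn* were 1.11, 0.0193 and 0.00664, and microglia-like *Ctss* and *Lgmn* were -3.8e-04 and -0.00937. Monocyte-like *Ctsl* was 0.0202 in cluster 1 alone. Leaving out HC replicate 1 or 2 in turn gave border macrophage-like *Ctsz* from -0.117 to 0.185, *Ctsl* from -0.0674 to 0.846 and *Ctsc* from -0.0138 to 0.163, the negative ends without HC replicate 1, 2 and 2. In the same way microglia-like *Ctss* ran from -0.0120 (without HC replicate 1) to 0.0896 and *Ctsz* from -0.00914 (without HC replicate 2) to 0.127, cDC-like *Ctsz* from -0.465 to 0.0495 (without HC replicate 2), and mature B-like *Ctsh* from -0.0627 (without HC replicate 1) to 0.344 and *Ctsz* from -0.123 (without HC replicate 2) to 0.184. For the difference between microglia-like and border macrophage-like cells, DESeq2 gave -0.0142 for *Ctsl* and 0.0153 for *Ctsh*, and leaving out doublets gave -0.0247 for *Ctsz*. For the difference between neutrophil-like and monocyte-like cells, *Ctsh* was -0.148 without TMM and -0.0167 with doublets left out. Leaving out a library moved *Ctss* in neutrophil-like cells from -1.44 to -1.01, with no test, since no spread was left. The number of members highest in microglia-like cells, 5, ranged from 5 to 6. With free RNA subtracted no value could be had for *Ctss*, *Ctsb* and *Ctsz* in neutrophil-like cells. With 1 CSD pool, differences among stressed mice could not be measured.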

Other observations

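*Cstb*, cystatin B, the cytosolic inhibitor of cysteine cathepsins, was higher in border macrophage-like cells (293, 262 and 275 CPM) than in microglia-like cells (155, 162 and 206 CPM), with no overlap, while *Cst3* was higher in microglia-like cells. *Grn*, which encodes progranulin, a lysosomal glycoprotein precursor, was 1011, 971 and 1094 CPM in microglia-like and 628, 551 and 648 CPM in border macrophage-like cells. T-like cells held 64.0, 70.4 and 41.4 CPM of *Grn*. These levels are a description.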
